A study of Mus musculus with 12 samples.

Results

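The 9 transcription factor genes described here are Hnf4a, Foxa1, Foxa2, Foxa3, Cebpa, Nr1i2, Nr1i3, Onecut1 and Prox1, a list of regulators that give liver parenchymal cells their identity. They were chosen by name and not by a measured value, but earlier results of these data were known. All 9 were found among the 55487 gene identifiers counted, and all 9 passed the filter on low counts that left 13535 genes in the test. The RNA came from primary hepatocytes of mouse liver kept in culture, in 4 groups of 3 libraries. Control cells received neither scavenger nor FAC. The FAC group received FAC alone, an agent whose abbreviation the labels leave unexplained. The Lip-1+FAC and MT+FAC groups received FAC after a pretreatment on culture day 2 with liproxstatin-1, which scavenges lipid reactive oxygen species (ROS), or with Mito-TEMPO, which scavenges mitochondrial ROS. No group had a scavenger without FAC, so in the pretreated groups an effect of the scavenger itself and an effect on the response to FAC cannot be told apart. Strain, age, dose and duration were not given in the sources used here. Nothing says that the replicates came from separate animals, so p-values measure the spread between these cultures or preparations, which may be technical.

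Hepatocytes hold their identity through a network of transcription factors that bind one another's genes and the genes of liver metabolism. FOXA proteins are forkhead factors able to bind closed chromatin, HNF4A is a nuclear receptor that works as a homodimer on the genes of lipoproteins, clotting factors and bile acid synthesis, and C/EBPα is a leucine zipper factor of metabolic genes. ONECUT1, also called HNF6, and PROX1 are homeodomain factors, of which PROX1 also acts as a co-repressor of HNF4A. PXR, the product of Nr1i2, and CAR, the product of Nr1i3, are nuclear receptors that pair with RXR and switch on genes for the disposal of drugs and bile compounds. Hepatocytes placed in culture are known to lose part of this expression with time.

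Libraries held 22991598 to 31683376 gene-assigned reads, except FAC replicate 2, whose file is marked as combined and held 52529278. Levels are given as CPM, counts scaled to library size after TMM, for one gene across libraries, and as TPM, which also divides by exon length, for one gene against another. The hepatocyte label was checked against 10 markers. Alb alone averaged 9093 CPM over the 12 libraries, and the 10 markers summed to between 17203 and 18026 CPM in Control and FAC libraries and to between 13785 and 15455 CPM in pretreated ones. The markers divided: 8 of the 10 had a lower mean in both pretreated groups than in FAC, such as Cyp2e1, which averaged 449 CPM with FAC alone, 141.8 under Lip-1+FAC and 159 under MT+FAC, whereas Apob (949, 1054 and 1042 CPM in that order) and Cps1 (711, 1034 and 1060 CPM) had a higher one. Between Control and FAC the markers divided as well. Cps1 (1695 and 711 CPM) and Tat (71.0 and 38.5 CPM) had a lower mean in FAC. The other markers had a higher one, such as Apob (720 and 949 CPM) and Cyp2e1 (335 and 449 CPM). In a bulk sample, fewer cells of a type and less RNA per cell cannot be told apart.

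By TPM in Control libraries, Hnf4a was the most abundant of the 9 at 230 ± 40.8 TPM (SD, n = 3), above 95.5% of the genes tested. Foxa3 followed at 119 ± 7.49 TPM. Foxa2 at 39.9 ± 3.45 TPM and Cebpa at 31.3 ± 5.59 TPM came next. These were followed by Prox1 at 23.6 ± 0.495 TPM, Nr1i2 at 22.9 ± 1.08 TPM and Foxa1 at 16.5 ± 1.07 TPM. Prox1 and Nr1i2, neighbours in this order, differed by less than the SD of Nr1i2 but by more than that of Prox1. This order depends on the length used. The median transcript length is 692 bases against 4828 for the union of exons in Hnf4a, and 3285 against 8390 in Prox1. In Foxa3 each is 2037 bases. Onecut1 stood at 4.50 ± 0.672 TPM and Nr1i3 at 0.247 ± 0.108 TPM, but both values are too low by construction. Of the exonic bases of Onecut1, 52.8% also belong to the annotated noncoding gene Gm20649 on the same strand, and of those of Nr1i3, 74.9% also belong to Tomm40l on the opposite strand. A read in a shared base is ambiguous in an unstranded count and goes to neither gene. Divided by the exonic bases shared with no other gene, a length chosen after the data were seen, Onecut1 came to 8.69 TPM and Nr1i3 to 0.897 TPM in Control.

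Between Control and FAC cells, 2 of the 9 genes changed. Nr1i2 fell 1.98-fold and Foxa3 rose 1.199-fold, while the other 7 did not pass the test. Over all genes tested 36.6% were called in this comparison, 17.5% higher and 19.1% lower in FAC. Against FAC alone, liproxstatin-1 pretreatment went with lower Foxa3, Onecut1 and Prox1 and higher Foxa1, that is 4 of 9, where 39.9% of all genes were called, 20.7% higher and 19.2% lower. Mito-TEMPO pretreatment went with lower Foxa3 and Prox1 and higher Foxa1 and Nr1i2, again 4 of 9, against 40.9% of all genes, 21.2% higher and 19.7% lower. The median log2 fold change of the 9 genes was -0.18 in FAC against Control, 0.10 in Lip-1+FAC against FAC and -0.01 in MT+FAC against FAC, and that of all genes lay between -0.01 and 0.00 in these comparisons. The shares of the 9 genes called were thus near or below those of all genes, and what follows describes which genes moved, by how much and in which direction. The comparisons with FAC share the FAC libraries. Called means an adjusted p below 0.05 by edgeR's quasi-likelihood test, with Benjamini-Hochberg adjustment over all genes.

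**Figure D1:**
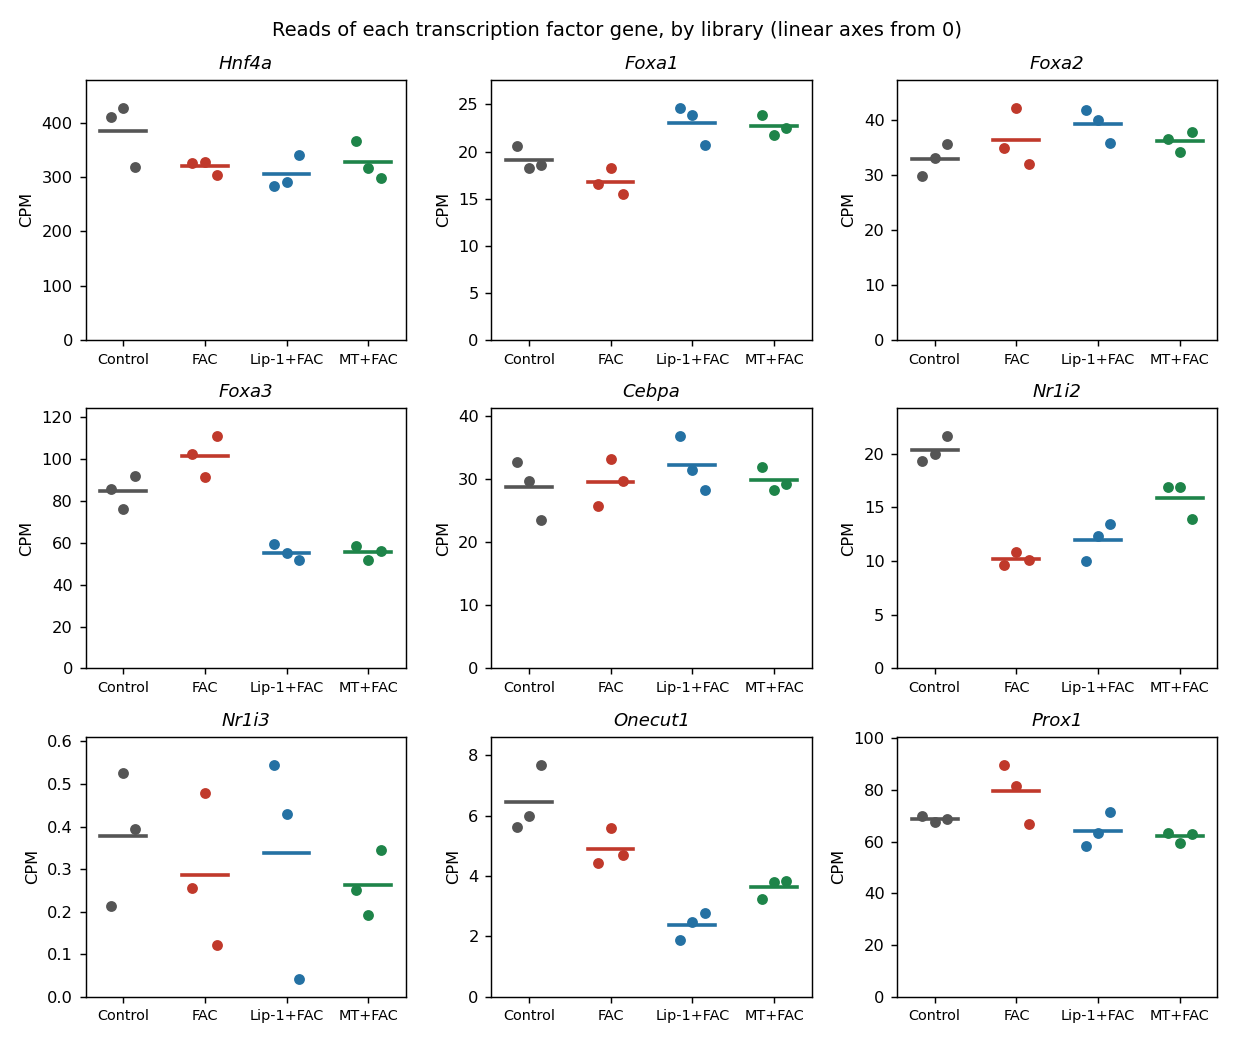
Reads of each of the 9 transcription factor genes in CPM (vertical axes, linear from 0, one scale per gene) for the 3 libraries of each group (points) with the group mean (bars). Foxa3 is lower in both pretreated groups than in Control and FAC, Nr1i2 is lowest in FAC, and Nr1i3 stays under 1 CPM in every library.

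**Figure D2:**
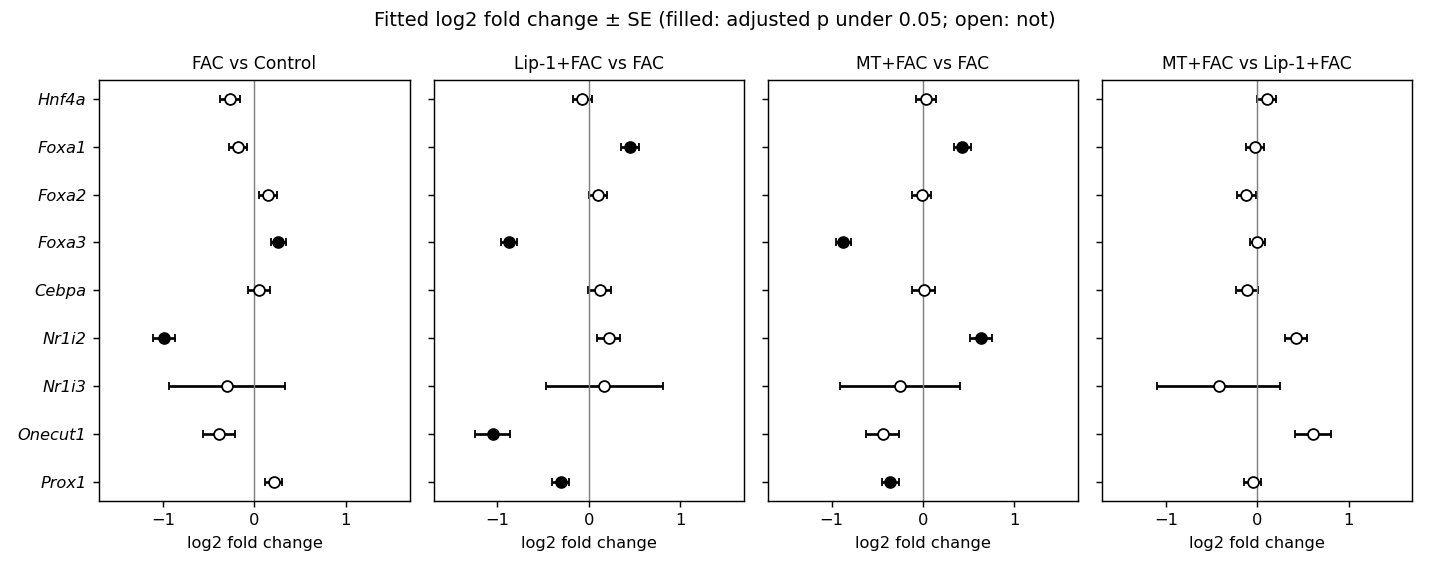
Fitted log2 fold change (horizontal axes) of each gene in 4 comparisons, with 1 SE on either side; filled points passed an adjusted p of 0.05 and open points did not. In the direct comparison of the pretreatments on the right no point is filled.

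The 250 bases before the annotated start are shown for the 4 genes whose own or overlapping reads differed most between groups. RefSeq (GRCm38.p6) gives 13 such windows for the 9 genes. Of these, 4 overlap an annotated exon. The 2 windows of Hnf4a and that of Foxa1 overlap an exon of the same gene, and a window of Prox1 overlaps an exon of Gm28172. Both strands were searched for the FOXA motif TGTTTAC, the HNF4A motif CAAAGTCCA and its core CAAAG, the HNF1 motif GTTAATNAT, the C/EBP motif TTGCNNAA, the ONECUT motif ATTGATT, the nuclear receptor element AGGTCA, the antioxidant response element core TGACNNNGC and the TATA box TATAAA. The core CAAAG is part of the longer HNF4A motif. The capitals mark every match. The windows are Foxa3 at chr7:19023540-19023789 (minus strand), Nr1i2 at chr16:38294825-38295074 (minus strand), Nr1i3 at chr1:171213720-171213969 (plus strand) and Onecut1 at chr9:74861671-74861920 (plus strand), written 5′ to 3′ along the gene.
Foxa3: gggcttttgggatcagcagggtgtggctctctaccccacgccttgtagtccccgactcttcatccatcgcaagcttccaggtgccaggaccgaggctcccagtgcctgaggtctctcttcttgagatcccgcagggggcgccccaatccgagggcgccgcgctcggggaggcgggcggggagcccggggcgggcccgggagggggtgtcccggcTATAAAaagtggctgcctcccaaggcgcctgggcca
Nr1i2: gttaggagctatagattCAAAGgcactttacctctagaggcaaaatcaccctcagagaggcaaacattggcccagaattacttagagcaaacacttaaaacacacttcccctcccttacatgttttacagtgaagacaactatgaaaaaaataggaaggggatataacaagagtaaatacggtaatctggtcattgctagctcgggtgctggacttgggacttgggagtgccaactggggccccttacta
Nr1i3: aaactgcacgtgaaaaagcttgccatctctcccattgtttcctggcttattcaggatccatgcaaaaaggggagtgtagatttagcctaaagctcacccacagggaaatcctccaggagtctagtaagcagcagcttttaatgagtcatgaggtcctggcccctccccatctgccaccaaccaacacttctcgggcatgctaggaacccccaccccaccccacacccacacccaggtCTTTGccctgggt
Onecut1: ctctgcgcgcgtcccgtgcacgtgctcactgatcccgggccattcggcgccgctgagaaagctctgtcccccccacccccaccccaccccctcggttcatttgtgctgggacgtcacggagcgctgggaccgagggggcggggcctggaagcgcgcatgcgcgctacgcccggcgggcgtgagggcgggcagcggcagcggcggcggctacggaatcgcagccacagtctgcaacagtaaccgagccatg
The Foxa3 window holds a TATA box 36 bases before the start, as do 12.4% of all 32851 windows of this length at any position. Of the 13 windows 4 hold it, the others being windows of Foxa2, Cebpa and Prox1. In the windows of Nr1i2 and Nr1i3 only the core CAAAG was found, 233 and 13 bases before the start, and 48.6% of all windows hold it. No motif of the search was found in the Onecut1 window, whose GC content is 71.6%. The Foxa1 window was the only one of the 13 with the FOXA motif, which 3.17% of all windows hold. It overlaps 2 copies of CAAAG on opposite strands there, shown in capitals with their surroundings at chr12:57546234-57546263 (minus strand).
Foxa1: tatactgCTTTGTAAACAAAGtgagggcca
The ONECUT motif was found in a window of Hnf4a, 60 bases before its first start, and in a window of Foxa2, against 2.61% of all windows. The HNF4A, HNF1 and C/EBP motifs, the nuclear receptor element and the antioxidant response element core were found in none of the 13 windows, against 0.384%, 0.737%, 9.56%, 14.0% and 10.2% of all windows. These matches describe letters and not binding, and no binding was measured.

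Hnf4a was read 6905 to 17085 times per library, so counting error was small beside the spread between libraries. In Control the libraries stood at 410, 428 and 319 CPM, and in FAC at 327, 327 and 304 CPM. The Lip-1+FAC libraries held 283, 291 and 340 CPM, and the MT+FAC libraries 366, 316 and 298 CPM. Control replicate 3 lay inside the range of the other groups, and every pair of groups overlapped. The change from Control to FAC was -0.27 ± 0.11 (log2, SE) with an adjusted p of 0.0681 in edgeR's test. Against FAC, the differences were -0.07 ± 0.11 for Lip-1+FAC and 0.03 ± 0.11 for MT+FAC, and an interval of 2 SE around them reached from -0.29 to 0.15 and from -0.18 to 0.25. Only Lip-1+FAC against Control passed the threshold, at -0.34 ± 0.11 with an adjusted p of 0.0316 by edgeR, and it held in 2 of 6 fits that left out 1 library: without Control replicate 1 or 2, or Lip-1+FAC replicate 1 or 2, the adjusted p was 0.102 to 0.112. With offsets for GC content and length this difference of Lip-1+FAC from Control was -0.27 and was not called, nor was it with only the 2 groups in the fit (-0.34, edgeR adjusted p 0.0620). Conversely, without Control replicate 3 the change in FAC was -0.39 with an adjusted p of 0.0017 by the same edgeR test, and MT+FAC against Control was -0.36 with one of 0.0087. On all 12 libraries with no filter on low counts edgeR also called both, at -0.26 (adjusted p 0.0012) and -0.22 (adjusted p 0.0146), and with upper-quartile scaling it called the change in FAC, at -0.29 (adjusted p 0.0449).

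The 3 Foxa genes, paralogs on chromosomes 12 (Foxa1), 2 (Foxa2) and 7 (Foxa3), did not move alike. Foxa3 libraries stood at 85.8, 76.4 and 91.9 CPM in Control and at 102, 91.5 and 111 CPM in FAC, so that the lowest FAC library lay just below the highest Control library. After liproxstatin-1 they held 59.3, 55.0 and 51.8 CPM, and after Mito-TEMPO 58.3, 51.9 and 56.0 CPM. All 6 pretreated libraries were below all 6 others. Foxa3 was 0.26 ± 0.08 higher in FAC than in Control on the log2 scale with an adjusted p of 0.0190 by edgeR, and this call was lost without Control replicate 2 or FAC replicate 3, each at 0.19. It was 0.87 ± 0.08 lower in Lip-1+FAC than in FAC, 1.83-fold, with an adjusted p of 3.1e-07 by edgeR. The value for MT+FAC against FAC was -0.87 ± 0.08, at an adjusted p of 4.6e-07 in the same edgeR fit. Both pretreated groups were also below Control, by log2 values of -0.61 ± 0.08 each (edgeR adjusted p 2.7e-05 and 7.7e-05).

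Foxa1 differed in the opposite direction between the pretreated groups and the other groups. Its libraries held 20.6, 18.3 and 18.5 CPM in Control and 16.6, 18.3 and 15.5 CPM in FAC. The Lip-1+FAC libraries held 24.7, 23.8 and 20.7 CPM and the MT+FAC libraries 23.9, 21.8 and 22.5 CPM. Every pretreated library was above every FAC and Control library. Foxa1 was higher than in FAC by 0.46 ± 0.10 (log2, SE) after liproxstatin-1 and by 0.43 ± 0.10 after Mito-TEMPO, with edgeR adjusted p of 0.0012 and 0.0019, and both calls held in all 6 fits that left out 1 library. Against Control the differences were smaller, 0.27 ± 0.10 after liproxstatin-1 with an adjusted p of 0.0453 by edgeR, which held in 2 of 6 such fits (lost without Control replicate 2 or 3 or Lip-1+FAC replicate 1 or 2, at adjusted p of 0.114 to 0.150), and 0.25 ± 0.10 after Mito-TEMPO with an edgeR adjusted p of 0.0835. The first of these calls was also lost with upper-quartile scaling, with no filter on low counts, with only the 2 groups in the fit and after thinning to the smallest library, at edgeR adjusted p of 0.0514 to 0.0694. With offsets for GC content and length the Mito-TEMPO value was 0.33 and was called, at an edgeR adjusted p of 0.0210.

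Foxa2 libraries lay between 29.8 and 42.3 CPM, with group means of 32.9 ± 2.98 CPM in Control, 36.4 ± 5.33 with FAC alone, 39.2 ± 3.06 under Lip-1+FAC and 36.2 ± 1.89 under MT+FAC (SD, n = 3). No comparison was called. The largest difference, Lip-1+FAC against Control, was 0.25 ± 0.10 (log2, SE) at an adjusted p of 0.0678 by edgeR. Leaving out replicate 3 of Control or of Lip-1+FAC gave 0.32 and 0.317, both called, and with no filter on low counts it was called at 0.27. With offsets for GC content and length in the fit 3 comparisons were called by edgeR: Lip-1+FAC against Control at 0.48 (adjusted p 0.00027), Lip-1+FAC against FAC at 0.29 in place of 0.10 (adjusted p 0.0093) and MT+FAC against Control at 0.30 (adjusted p 0.0192). The Foxa2 exons have 58.4% GC, against a median of 49.2% for genes with a read.

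Together the 3 Foxa genes summed to 176 ± 7.498 TPM in Control, 202 ± 4.81 with FAC alone, 151.8 ± 7.55 under Lip-1+FAC and 150.98 ± 7.39 under MT+FAC (SD, n = 3). Foxa3 made up 65.8% to 69.2% of that sum in Control libraries and 65.8% to 75.03% in FAC libraries. In Lip-1+FAC libraries it made up 52.9% to 54.4%, and in MT+FAC libraries 54.8% to 55.9%. The share of Foxa1 was 8.48% to 10.2% in Control, 6.42% to 8.04% in FAC, 13.3% to 14.1% after liproxstatin-1 and 13.5% to 14.1% after Mito-TEMPO. The share of Foxa2 was 20.6% to 24.6% in Control, 18.6% to 26.2% in FAC, 32.4% to 33.1% after liproxstatin-1 and 30.1% to 31.8% after Mito-TEMPO. All 3 shares in pretreated cells therefore lay outside the range of both other groups, with Foxa3 a smaller and both Foxa1 and Foxa2 a larger part. These shares are parts of the same sum, so a smaller Foxa3 part makes the others larger. Foxa2 itself was not called in any comparison of the main analysis. The shares also rest on the union of exons, of 3327 bases for Foxa1, 2370 for Foxa2 and 2037 for Foxa3. Median transcript lengths are 1802.5, 1467.5 and 2037 bases, with which Foxa3 would make up a smaller share in every group.

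**Figure D3:**
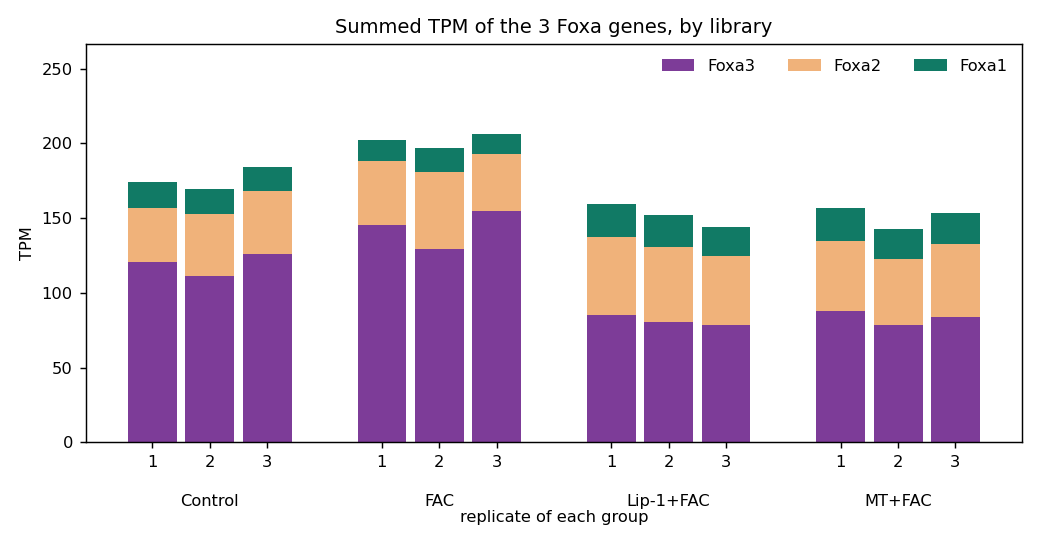
Summed TPM of Foxa1, Foxa2 and Foxa3 (vertical axis, linear from 0) in each of the 12 libraries, stacked by gene. The Foxa3 part is shorter in the 6 pretreated libraries on the right, and the whole column is tallest in the 3 FAC libraries.

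Cebpa gave no call in any of the 6 comparisons. The libraries held 32.7, 29.7 and 23.5 CPM in Control, 25.7, 33.1 and 29.7 CPM with FAC alone, 36.7, 31.4 and 28.2 CPM under Lip-1+FAC and 31.8, 28.3 and 29.1 CPM in MT+FAC. All groups overlapped. An interval of 2 SE around the log2 change in FAC, 0.05, reached from -0.20 to 0.30. Cebpa has 61.2% GC, the highest of the 9, and with offsets for GC content and length Lip-1+FAC was 0.41 above both FAC and Control, each called by edgeR with an adjusted p of 0.0058 and 0.0088.

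By the ratio of the highest to the lowest library, Onecut1 varied most of the 8 genes with more than a few reads, although it rested on only 52 to 292 reads per library. Control libraries held 5.64, 6.002 and 7.70 CPM and FAC libraries 4.42, 5.59 and 4.68 CPM. After liproxstatin-1 they held 1.89, 2.47 and 2.79 CPM, and after Mito-TEMPO 3.25, 3.802 and 3.84 CPM. No 2 groups overlapped, and the order of the means was Control, FAC, MT+FAC and Lip-1+FAC, from high to low. None of the 3 neighbouring steps passed edgeR's test. FAC was at -0.39 ± 0.18 against Control (log2, SE, edgeR adjusted p 0.0961), MT+FAC at -0.44 ± 0.18 against FAC (edgeR adjusted p 0.0592), and MT+FAC at 0.61 ± 0.20 against Lip-1+FAC (edgeR adjusted p 0.140). DESeq2 called MT+FAC against FAC, at an adjusted p of 0.0482, as did edgeR with offsets for GC content and length (-0.53, adjusted p 0.0245) or with the stranded columns summed (adjusted p 0.0485). Lip-1+FAC was -1.05 ± 0.19 against FAC and -1.44 ± 0.19 against Control, a 2.71-fold fall, with edgeR adjusted p of 0.00026 and 1.8e-05. MT+FAC against Control was -0.83 ± 0.18 with an edgeR adjusted p of 0.0038. These 3 calls held in all 48 refits that gave a value. Onecut1 is also active in bile duct cells. Among 6 bile duct markers Sox9 averaged 17.4, 53.4, 12.01 and 15.1 CPM and Krt19 3.96, 9.96, 1.58 and 2.70 CPM in Control, FAC, Lip-1+FAC and MT+FAC, and Cftr was at 0 in FAC and at 0.036 CPM or less in the other group means. The summed list moved otherwise, at 58.6 to 69.0 CPM in Control, 98.4 to 123 with FAC alone, 110 to 125 under Lip-1+FAC and 104 to 145 under MT+FAC, because Spp1 was higher in the pretreated groups. Their part in the Onecut1 result was not tested.

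Prox1 libraries held 69.8, 67.6 and 69.0 CPM in Control and spread over 89.9, 81.6 and 66.9 CPM in FAC. They held 58.2, 63.2 and 71.6 CPM in Lip-1+FAC and 63.6, 59.5 and 63.2 CPM in MT+FAC. FAC replicate 3 lay below the Control libraries and the other FAC libraries above them. FAC against Control was not called in the analysis of all libraries, but was called without that library, at 0.32, and on all libraries with no filter on low counts, at 0.22 with an edgeR adjusted p of 0.0236. Prox1 was -0.36 ± 0.09 (log2, SE) in MT+FAC against FAC, with an edgeR adjusted p of 0.0050 that held in all 6 fits leaving out 1 library. In Lip-1+FAC against FAC it was -0.31 ± 0.09 with an edgeR adjusted p of 0.0134, a call lost by leaving out FAC replicate 1 (-0.20), or replicate 1 (-0.23) or 2 (-0.29) of Lip-1+FAC. Neither pretreated group was called against Control, at -0.10 ± 0.09 for Lip-1+FAC and -0.15 ± 0.09 for MT+FAC. With offsets for GC content and length the latter was -0.26 and was called, at an edgeR adjusted p of 0.0367.

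Nr1i2, which encodes PXR, was the gene of the 9 with the largest change in FAC. Control libraries stood at 19.3, 19.96 and 21.6 CPM and FAC libraries at 9.65, 10.9 and 10.1 CPM. The Lip-1+FAC libraries held 10.01, 12.3 and 13.4 CPM, and the MT+FAC libraries 16.9, 16.9 and 13.9 CPM. MT+FAC lay between Control and FAC with no overlap, and Lip-1+FAC overlapped FAC. The change in FAC was -0.99 ± 0.12 (log2, SE, edgeR adjusted p 5.5e-06). With liproxstatin-1 it stood at 0.22 ± 0.12 against FAC, which was not called (edgeR adjusted p 0.167), and at -0.77 ± 0.12 against Control (edgeR adjusted p 9.8e-05). With Mito-TEMPO it was 0.64 ± 0.12 higher than in FAC (edgeR adjusted p 0.00041) and stood at -0.35 ± 0.12 against Control with an adjusted p of 0.0442 by edgeR. That last call was lost in all 6 fits that left out 1 Control or MT+FAC library, at adjusted p of 0.0583 to 0.187, whereas the fall in FAC and the rise after Mito-TEMPO held in all of theirs. With offsets for GC content and length MT+FAC against Control was -0.25 and was not called, and with no filter on low counts it was -0.33 and was not called (edgeR adjusted p 0.0589). Lip-1+FAC against FAC ranged from 0.13 to 0.33 with 1 library left out, and without Lip-1+FAC replicate 1 it was called, at 0.33 with an edgeR adjusted p of 0.0455. MT+FAC was 0.42 ± 0.12 above Lip-1+FAC with an adjusted p of 0.0948 by edgeR and of 0.0328 by DESeq2, and with no filter on low counts edgeR called it at 0.43 (adjusted p 0.0338).

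Nr1i3, which encodes CAR, could not be measured in the unstranded count. Its own reads numbered 1 to 25 per library, with group means of 0.378, 0.285, 0.339 and 0.262 CPM in Control, FAC, Lip-1+FAC and MT+FAC, and no comparison was called. Reads over the bases it shares with Tomm40l, a mitochondrial import channel gene read from the other strand, numbered 382 to 846 per library. They came to 24.1, 25.3 and 24.7 CPM in Control and to 15.8, 15.5 and 15.2 CPM in FAC. Lip-1+FAC libraries held 21.8, 22.7 and 24.5 CPM and MT+FAC libraries 26.7, 26.99 and 27.1 CPM. FAC stood below every other group, MT+FAC above every other group, and Control and Lip-1+FAC overlapped. With the stranded columns summed, which gives these reads to both genes, Nr1i3 was -0.64 in FAC against Control, 0.55 in Lip-1+FAC against FAC and 0.74 in MT+FAC against FAC on the log2 scale, each called by edgeR (adjusted p 8.6e-06, 2.9e-05 and 1.8e-06). The library kit does not keep the strand, so whether these reads came from Nr1i3 or from Tomm40l cannot be told apart. Reads over exons of Tomm40l alone, 64 to 154 per library, averaged 4.23 CPM in Control, 2.88 with FAC alone, 3.43 under Lip-1+FAC and 3.30 under MT+FAC. Tomm40l was -0.54 in FAC against Control (edgeR adjusted p 0.0333) and not called in either pretreated group against FAC (0.25 and 0.17 on the log2 scale). Per kilobase, reads in the shared bases were 2.83 to 5.07 times as dense as those in the bases of Tomm40l alone. The 1110 bases of Nr1i3 alone, with 1 to 25 reads per library, were in turn sparser than the 1831 bases of Tomm40l alone in every library.

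**Figure D4:**
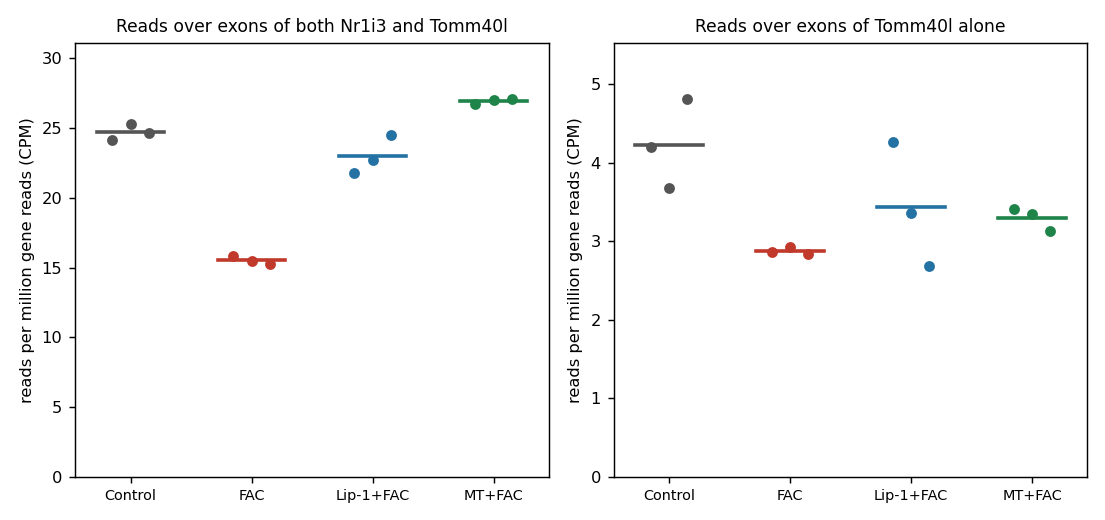
Reads in CPM (vertical axes, linear from 0) over exonic bases shared by Nr1i3 and Tomm40l (left) and over exons of Tomm40l alone (right), for 3 libraries per group (points) with the mean (bars). The shared reads are lowest in FAC, between 15.2 and 15.8 CPM; the Tomm40l reads are also lowest there on average but overlap Lip-1+FAC.

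The 9 genes gave no call between the pretreatments. In MT+FAC against Lip-1+FAC edgeR called 0 of the 9 genes, 2 had an unadjusted p under 0.05 (Nr1i2 and Onecut1), and DESeq2 called 1, Nr1i2. Over all genes 1.34% were called in this comparison, 0.465% higher and 0.879% lower in MT+FAC. An interval of 2 SE around the log2 difference reached from -0.17 to 0.17 for Foxa3, from -0.22 to 0.17 for Foxa1, from -0.24 to 0.13 for Prox1, from 0.18 to 0.66 for Nr1i2 and from 0.22 to 1.00 for Onecut1.

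Against untreated cells, 5 of the 9 genes were called in Lip-1+FAC: Foxa1 was higher, and Hnf4a, Foxa3, Nr1i2 and Onecut1 were lower. Over all genes 30.2% were called, 15.4% higher and 14.8% lower. In MT+FAC 3 of 9 were called, Foxa3, Nr1i2 and Onecut1, all lower, against 19.8% of all genes, 9.71% higher and 10.1% lower. Foxa2, Cebpa and Nr1i3 gave no call in any of the 6 comparisons.

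Among 33 other liver-enriched transcription factors, of which 32 were tested, 3 rose and 14 fell in FAC against Control, with a median log2 change of -0.30 where that of all genes was -0.01 and 17.5% of all genes were called higher and 19.1% lower. In Lip-1+FAC against FAC 7 were higher and 10 lower, beside 20.7% and 19.2% of all genes, and in MT+FAC against FAC 9 were higher and 9 lower, beside 21.2% and 19.7%. Against Control 1 was higher and 16 lower under Lip-1+FAC, and 2 were higher and 6 lower under MT+FAC, beside 15.4% and 14.8%, and 9.71% and 10.1%, of all genes. Nr1h4, the gene of the bile acid receptor FXR, went from 77.1 ± 5.28 CPM in Control to 27.5 ± 0.721 in FAC, 52.4 ± 1.69 under Lip-1+FAC and 51.6 ± 2.63 under MT+FAC (SD, n = 3). Its fall in FAC, -1.49 ± 0.07 (log2, SE, edgeR adjusted p 1.1e-10), compares with -0.99 for Nr1i2, and it was called higher than in FAC after either pretreatment, by 0.93 ± 0.07 and 0.91 ± 0.07. Tbx3, a T-box factor of hepatic fate, was -1.92 ± 0.15 in FAC. Against FAC it stood at 0.19 ± 0.15 in Lip-1+FAC (edgeR adjusted p 0.332) and at 0.50 ± 0.15 in MT+FAC (edgeR adjusted p 0.0121), and the difference between the pretreatments, 0.31 ± 0.15, was not called (edgeR adjusted p 0.386). Hlf, a factor of the PAR leucine zipper family under circadian control, fell by 1.34 in FAC and was 0.85 and 0.99 higher than FAC in Lip-1+FAC and MT+FAC. Onecut2, the paralog of Onecut1, held 46.3 ± 5.85 CPM in Control, 73.1 ± 6.14 with FAC alone, 27.6 ± 3.23 under Lip-1+FAC and 33.4 ± 2.99 under MT+FAC. It rose by 0.66 ± 0.10 in FAC, where Onecut1 was not called, and like Onecut1 it was lower after liproxstatin-1 than in FAC, by -1.41 ± 0.11, and after Mito-TEMPO it was -1.13 ± 0.10.

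Of 14 co-regulators that these factors use, 5 rose and 2 fell in FAC, with a median log2 change of 0.04, beside 17.5% of all genes called higher and 19.1% lower. Ep300, a histone acetyltransferase, rose by 0.62 ± 0.14, and Ncoa2, a nuclear receptor coactivator, by 0.47 ± 0.11 on the log2 scale. Ppargc1a, which encodes the coactivator PGC-1α of fasting metabolism, fell by 0.55 ± 0.13. In Lip-1+FAC against FAC 3 were higher and 3 lower, and in MT+FAC against FAC 4 were higher and 2 lower, beside 20.7% and 19.2%, and 21.2% and 19.7%, of all genes. Ppargc1a was higher in both, at 0.59 ± 0.13 and 0.37 ± 0.13, and Ncoa2 was lower in both.

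Among textbook targets of HNF4A, C/EBPα and the FOXA factors, more genes were called lower than higher in FAC. Over all genes 17.5% were called higher and 19.1% lower, and the median log2 change was -0.01. Of the 25 tested among 28 HNF4A targets, 12 fell and 1 rose, and the median log2 change was -0.26. Of 15 C/EBPA targets 10 fell and 0 rose, with a median of -0.71, while Cebpa itself was not called. Of the 9 tested among 10 FOXA targets 4 fell and 2 rose, with a median of -0.35. The lists share genes: Gys2 is in the first and the second, and Pck1 is in all of them. Cps1, the first enzyme of the urea cycle, went from 1695 ± 221 CPM in Control to 711 ± 146.2 in FAC, a log2 change of -1.25 ± 0.16. Hp, the haemoglobin scavenger haptoglobin, fell by 0.77 ± 0.10. Igfbp1, a secreted binder of insulin-like growth factors and a FOXA target, moved the other way, from 165 ± 37.5 CPM to 670 ± 37.4 CPM, a rise of 2.02 ± 0.17.

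Against FAC, the calls in these lists went in both directions in the pretreated groups, as they did over all genes, of which 20.7% were higher and 19.2% lower in Lip-1+FAC and 21.2% and 19.7% in MT+FAC. HNF4A targets showed 7 higher and 7 lower in Lip-1+FAC against FAC and 8 higher and 7 lower in MT+FAC against FAC. C/EBPA targets showed 5 and 5, and 4 and 4, and FOXA targets 2 higher and 4 lower in each. The medians were 0.15 and 0.13 for HNF4A targets, -0.05 and 0.05 for C/EBPA targets and -0.24 and -0.21 for FOXA targets. Against Control, more of these genes were lower than higher in the pretreated groups as well. Under Lip-1+FAC 12 HNF4A targets were lower and 2 higher, 10 C/EBPA targets lower and 2 higher, and 6 FOXA targets lower and 2 higher, beside 14.8% and 15.4% of all genes. Under MT+FAC the counts were 10 and 1, 9 and 2, and 5 and 1, beside 10.1% and 9.71%. Gys2, the liver glycogen synthase, was 1.42 ± 0.20 and 1.27 ± 0.20 above FAC, and Tdo2, a tryptophan oxygenase, 1.27 ± 0.10 and 1.00 ± 0.10 above it. Abcg5, a sterol exporter, was 1.04 ± 0.15 and 0.80 ± 0.15 above FAC. Igfbp1 was -2.69 ± 0.17 and -2.57 ± 0.17 against FAC, and Apoa2, an HDL apolipoprotein, -1.01 ± 0.17 and -1.08 ± 0.17. Pck1, the gluconeogenic carboxykinase, fell in FAC by 1.21 ± 0.17 and stood a further -1.21 ± 0.19 and -1.03 ± 0.19 from FAC in the pretreated groups, at 3.87 ± 0.284 and 4.35 ± 0.574 CPM.

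Of the 21 tested among 23 PXR and CAR targets, 5 rose and 8 fell in FAC, and 9 were higher and 6 lower in each pretreated group against FAC, beside the same shares of all genes. The medians were -0.16 in FAC against Control, and against FAC 0.33 after liproxstatin-1 and 0.24 after Mito-TEMPO. Cyp2b10, the classical CAR target, held 1523 ± 69.8 CPM in Control, 670 ± 61.8 with FAC alone, 1607 ± 95.1 under Lip-1+FAC and 1628 ± 139 under MT+FAC. It fell by 1.18 ± 0.07 in FAC and was 1.26 ± 0.07 and 1.28 ± 0.07 above FAC after liproxstatin-1 and Mito-TEMPO, on the log2 scale. Abcc2, a canalicular exporter of conjugates, held 113 ± 6.91 CPM in Control, 186 ± 18.3 with FAC alone, 408 ± 28.5 under Lip-1+FAC and 269 ± 17.5 under MT+FAC, and was 0.60 ± 0.08 lower in MT+FAC than in Lip-1+FAC (edgeR adjusted p 0.00031). Ugt1a1, which conjugates bilirubin, and Sult2a8, a bile acid sulfotransferase, were not called in FAC and were lower in both pretreated groups, at -1.13 and -1.21 for Ugt1a1 and -1.23 and -1.34 for Sult2a8. Ugt1a1 shares exons with its neighbours, and Cyp2b and Sult2a genes have close relatives, so their counts are uncertain. Of 8 fetal liver genes 4 were tested, none was called in FAC, and 1 was higher in each pretreated group against FAC.

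**Figure D5:**
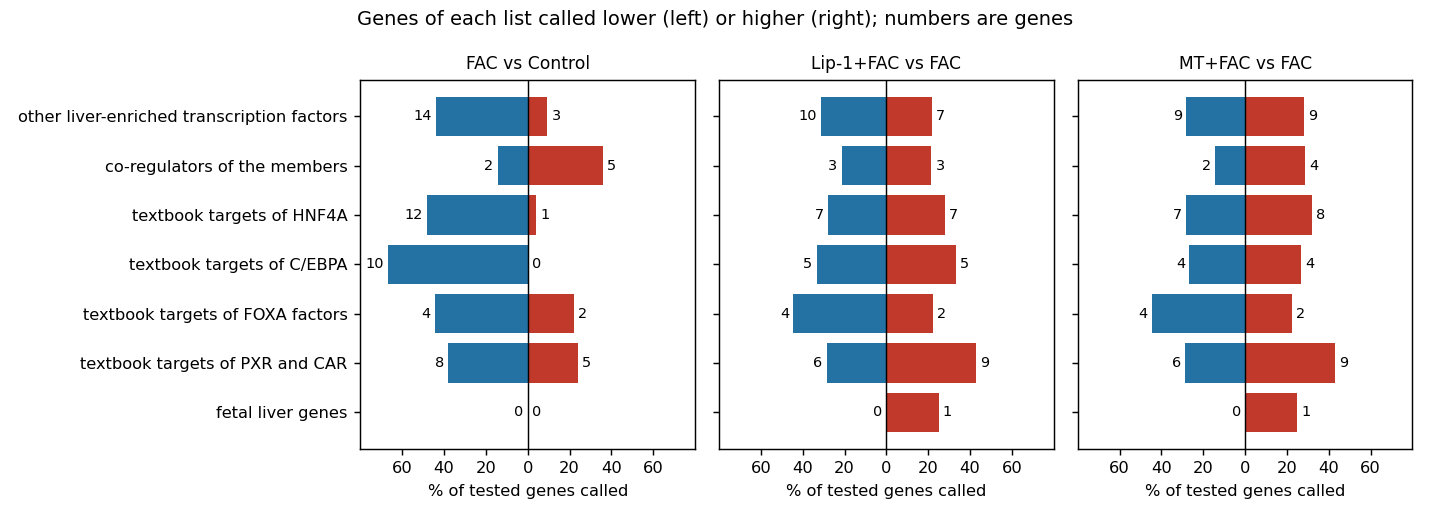
Share of each list's tested genes called lower (left of 0) or higher (right of 0) in 3 comparisons (horizontal axes, percent), with the number of genes at each bar. The bars of HNF4A and C/EBPA targets lie mostly on the left in FAC against Control, with 12 and 10 genes lower, and on both sides in the comparisons of pretreated cells with FAC.

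For each of the 6 genes called in at least 1 comparison, the 2 most similar profiles were sought among 8993 protein-coding genes by the root mean square difference of log2 CPM, centred per gene, over the 12 libraries. For Foxa3 they were Serpina1b, at a distance of 0.0760, and Spp2, at 0.0801, where the profile of Foxa3 itself has a root mean square of 0.394. Serpina1b belongs to a family of near-identical genes, so its count is uncertain. Spp2 held 22.7, 27.6, 14.4 and 15.4 CPM in Control, FAC, Lip-1+FAC and MT+FAC. For Nr1i2 they were Tap1 (0.0917) and Tcta (0.102), and for Onecut1 the nearest was Shroom1 (0.139). For Foxa1 they were Ints7 (0.0851) and Hpx (0.0859), the haem-binding plasma protein haemopexin, with 11901 CPM in Control and 14711 in Lip-1+FAC. For Prox1 they were Sf3b1 and Cspp1, and for Hnf4a Cobl and Tram2, but the profiles of these 2 factors varied little themselves, at 0.173 and 0.179.

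Summed markers of other liver cells differed between the groups as well, but each sum followed a few genes. The 8 macrophage markers summed to 223 to 256 CPM in Control, 288 to 321 with FAC alone, 118 to 146.9 under Lip-1+FAC and 143.1 to 175 under MT+FAC. Nearly all of it was Cd68, and the Kupffer cell markers Clec4f, Cd5l and Vsig4 stayed at or under 1.495 CPM in every library. The markers divided: Csf1r and Cd5l, like Cd68, had their highest mean in FAC, whereas Lyz2, Clec4f and Ptprc had their lowest there. Lyz2 averaged 3.50, 2.84, 4.38 and 4.37 CPM in Control, FAC, Lip-1+FAC and MT+FAC. The 6 endothelial markers summed to 33.6 to 36.0 CPM in Control and FAC and to 24.9 to 29.7 CPM in the pretreated groups. That sum followed Stab2, with means of 28.2, 26.5, 17.9 and 19.2 CPM in Control, FAC, Lip-1+FAC and MT+FAC, whereas Pecam1 (2.77, 2.63, 3.19 and 3.05 CPM) and Kdr (0.967, 1.25, 1.91 and 1.499 CPM) had higher means in the pretreated groups. The 7 stellate cell markers summed to 17.5 to 25.2 CPM in Control, 27.8 to 36.1 with FAC alone, 11.7 to 14.6 under Lip-1+FAC and 13.8 to 18.7 under MT+FAC, with Lrat at 0.450 CPM or less. It followed Reln (7.46, 16.1, 4.53 and 5.23 CPM) and Acta2 (9.12, 12.1, 5.06 and 6.45 CPM), whereas Col1a1, Col3a1 and Pdgfrb had their lowest mean in FAC, at 0.465, 2.12 and 0.288 CPM. No marker was at 0 in all 12 libraries. The part of these cells in the results on the 9 genes was not tested.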

How the data were processed

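RNA was reverse transcribed with the SMART-Seq v4 kit, tagged with Nextera XT and sequenced on a NovaSeq instrument, per the labels' protocols; this preparation does not keep the strand, and no molecular identifiers are mentioned, so reads are not independent molecules. Per the submitters' processing notes STAR and the build GRCm38 were used. The STAR version and the gene annotation are not given in the sources used here. Values are the deposited raw gene counts, of which the authors' unstranded column was used. Lines that name no gene stayed out; gene-assigned reads were 75.8% to 81.2% of each library's lines. GENCODE M21 (GRCm38) gave names, coordinates and lengths for 55227 of 55487 identifiers.

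After filterByExpr and TMM scaling, edgeR 4.0.16 (R 4.3.3) tested each gene by its quasi-likelihood method, two-sided, with 4 group means over all 12 libraries and Benjamini-Hochberg adjustment over 13535 genes. Each SE was derived from a log2 fold change and the F value of its test. TPM divides by the union of exons. Multimapping reads are not counted; blastn 2.17.0+ (at least 95% identity over 100 bases of annotated transcripts) found, beside the members themselves, only Tomm40l, Gm20649 and the antisense gene Prox1os, which overlap their exons. The fit was tested on simulated data. Alternatives included DESeq2 1.42.0, other scalings and filters, thinning, the summed stranded columns, GC and length offsets (lowess), a replicate block and leaving out each library.

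The 9 genes and the gene lists were chosen with earlier results of these data known. All 9 are named; each list names up to 4 called genes of mean CPM of at least 5 with the largest change in FAC against Control or a pretreated group against FAC. The symbol Tf matched no identifier, and other listed genes not tested had too few counts. Some genes that the naming rule picks are not reported here.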

Additional observations from a re-analysis of the deposited data

How the results depend on the processing

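Over all refits of the 9 genes in 6 comparisons, the values called in the report kept direction and call in 273 and lost the call in 30, and those not called stayed so with the same direction in 523, gained a call with the same direction in 33 and changed sign in 44, of which 1 was then called (Nr1i3 in MT+FAC against FAC with the stranded columns summed). No value called in the report changed sign. The cause of each change was not tested. Among the 9 genes, FAC against Control gave 4 calls with no filter on low counts (4887 over all genes) and 1 to 3 when 1 library was left out (4048 to 4803). In Lip-1+FAC against Control it was 3 with only the 2 groups in the fit (3605 over all genes) and 3 to 6 with 1 library left out (3233 to 3876). In MT+FAC against Control it was 5 with GC and length offsets (2512 over all genes). In MT+FAC against Lip-1+FAC it was 1 with no filter and 1 with DESeq2, where over all genes 182 were called in the main analysis, 477 with no filter, 422 with DESeq2, 312 with 2 groups and 74 to 156 with 1 library left out. In this comparison 34.6% of the calls were higher, but 46.7% with upper-quartile scaling, 49.7% with no filter and 45.7% with DESeq2.

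Values that changed sign were these. Nr1i3 gave 0.74 (MT+FAC against FAC), 0.18 (MT+FAC against Lip-1+FAC) and 0.10 (MT+FAC against Control) with the stranded columns summed, and -0.00287 (Lip-1+FAC against FAC) when thinned. In MT+FAC against FAC, Hnf4a was -0.00265 with GC and length offsets and -0.00438 with these and the replicate block, Foxa2 was 0.11 and 0.11 under the same fits and 0.018 when thinned, and Cebpa was -0.00122 with RLE size factors, -0.00745 with a CPM minimum, -5.3e-05 with DESeq2 and -0.020 with the stranded columns. Foxa3 in MT+FAC against Lip-1+FAC was -0.000625 with the replicate block, -0.042 with the offsets, -0.044 with both, -0.018 with the stranded columns, -0.000992 with 2 groups and -0.011 when thinned. With 1 library left out, values that changed sign ranged as follows. In FAC against Control, Cebpa lay from -0.074 to 0.15 and Nr1i3 from -0.98 to 0.00199. In Lip-1+FAC against FAC, Nr1i3 lay from -0.31 to 0.85. In MT+FAC against FAC, Hnf4a lay from -0.061 to 0.097, Foxa2 from -0.097 to 0.11, Cebpa from -0.090 to 0.10 and Nr1i3 from -0.55 to 0.43. In MT+FAC against Lip-1+FAC, Foxa1 lay from -0.095 to 0.026, Foxa3 from -0.045 to 0.051, Nr1i3 from -0.91 to 0.071 and Prox1 from -0.12 to 0.031. Against Control, Nr1i3 lay from -0.62 to 0.35 in Lip-1+FAC and Cebpa from -0.067 to 0.16 in MT+FAC.

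Deviations of same-numbered libraries from their group means correlated from -0.249 to 0.164 over 18 pairs, with 3 over 0.1. Those of differently numbered libraries correlated from -0.196 to 0.221 over 36 pairs, with 4 over 0.1. With 3 libraries per group, these values cannot exclude that replicate numbers pair the libraries. With the replicate block, MT+FAC against FAC gained Onecut1 (-0.44, edgeR adjusted p 0.0431) and MT+FAC against Control lost Nr1i2 (-0.35, adjusted p 0.0554). A mean CPM minimum of 5 removed Onecut1 and Nr1i3 from the test, and fits of 2 groups that included MT+FAC did not test Nr1i3. With 1 to 25 reads per library counted as its own, no difference in Nr1i3 was called in the unstranded count. So few reads do not show that Nr1i3 stayed the same.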
